A study of Zea mays with 16 samples.

Results

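The chilling response common to leaves of the maize inbreds B73 and M37W was measured by setting 4 chilled libraries (2 of B73 and 2 of M37W, plants at 4 °C) against 4 control libraries (2 of each line, plants at 26 °C), with line as a block in the fit. These 8 libraries were chosen by line and temperature from the 16 of the series, and no library of the other lines, B104 and CML333, entered the fit. B73 is the inbred on which the maize reference genome was built, and M37W is one of the founders of the nested association mapping population. Days for all plants had 14 h of light, at an irradiance of 250 µmol m-2 s-1, and nights lasted 10 h. The control plants had no treatment, and the sources used here do not give the duration of chilling, the age of the plants or which leaf was taken. Nothing in the labels says whether 2 libraries of a line came from separate plants, so the spread between them may be technical. In the fit with line as a block, p-values rest on this spread and on how unlike both lines changed with chilling. In the fit with a mean for each line and temperature, they rest on the spread between replicate libraries.

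Maize descends from a tropical grass, and its leaves are injured by temperatures above freezing that temperate cereals tolerate. In plants, cold is known to be followed within hours by new transcription, in which factors that bind C-repeat and dehydration-responsive elements switch on protective genes, while photosynthesis and growth slow. Plastids and mitochondria keep small genomes of their own that encode core subunits of the photosynthetic and respiratory complexes, and their RNAs are made, spliced and degraded apart from those of the nucleus.

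The libraries hold reads of transcript 3′ ends, primed on poly(A) tails, so counts do not grow with transcript length, and organelle RNA is counted only as far as it was primed in this way. Totals were 1780344 to 2420903 counts in the chilled and 2024851 to 2582414 counts in the control libraries. Of the 44146 nuclear gene models listed, 0 had an entry under that ID in RefSeq's gene table, so nuclear genes are given as counts of IDs, and 2 IDs in each direction are printed, those with the smallest p. For the same reason the 61 lists drawn up for cold, clock, photosynthesis, hormone and cell type genes could not be read: 1 of them had a tested member (psaJ), and the leaf label could not be checked against marker genes. In bulk leaf RNA, fewer cells of a type and less RNA per cell cannot be told apart. Across genes, replicates correlated at r = 0.980 to 0.985 on log2(CPM + 1), where CPM is the count divided by the library's total, in parts of 1000000, against 0.935 to 0.959 between temperatures within a line and 0.923 to 0.936 between lines at the same temperature. Among the 8 other libraries, the 2 B104 controls stand apart, with 1.20% and 1.52% of their counts in mitochondrial IDs (0.0309% to 0.354% in the other 14). They also held 5.03% and 3.69% in Ensembl's noncoding RNA IDs (0.0352% to 0.101% in the other 14). The library labelled CML333 chilled replicate 2 resembles control libraries, as shown further on.

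Line and temperature were the main axes of these leaves. On the first principal component, with 49.1% of the variance, B73 libraries lay between 55.5 and 88.1 and M37W libraries between -79.1 and -63.5, so lines did not overlap. On the second, with 27.7%, the 4 chilled libraries lay between -60.7 and -42.9 and the 4 control libraries between 33.95 and 74.2, so temperatures did not overlap. The third, with 11.5%, put the B73 chilled (-37.3 and -18.2) and M37W control libraries (-45.8 and -36.0) on one side and the B73 control (29.9 and 30.3) and M37W chilled libraries (35.6 and 41.4) on the other, so the lines responded in opposite directions along it.

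In chilled leaves of B73 and M37W together, 1754 IDs rose and 1250 fell of the 15174 tested. In edgeR's quasi-likelihood test with line as a block, at an adjusted p (Benjamini-Hochberg) under 0.05, 19.8% of the tested IDs were called, 11.6% upwards and 8.24% downwards. Rises were larger than falls. The median log2 fold change was 1.76 (quartiles 1.18 and 2.67) among IDs that rose, a 3.39-fold change, and -1.23 (quartiles -1.64 and -0.94) among those that fell, a 2.34-fold change, while over all tested IDs it was -0.03. Of the IDs that rose, 747 (42.6%) changed at least 4-fold and 335 (19.1%) at least 8-fold, against 153 (12.2%) and 41 (3.28%) of those that fell. The split between rises and falls depended on how libraries were scaled. With library totals in place of TMM factors the median of all tested IDs shifted to -0.19 and the calls were 1433 up and 1783 down. The number that fell was 792 without B73 chilled replicate 1.

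The IDs that rose came to fill a large part of the chilled libraries. They held 22.2% and 23.6% of counts in the chilled B73 libraries and 22.7% and 22.9% in the chilled M37W libraries, against 7.96% and 8.05% in the B73 controls and 8.69% and 8.21% in the M37W controls. The IDs that fell held 3.46% and 3.15% (B73) and 4.14% and 4.32% (M37W) of the chilled libraries, against 10.5% and 9.11% (B73) and 9.89% and 9.73% (M37W) of the controls. Because calls were made on these same libraries, the shares describe their size and are no further test. The gain was spread over many genes: 77 IDs made up 50% of the 14.6 percentage points gained, and the largest 10 made up 19.8%. Of the 6.04 points lost, 74 IDs made up 50% and the largest 10 made up 24.4%.

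**Figure D1:**
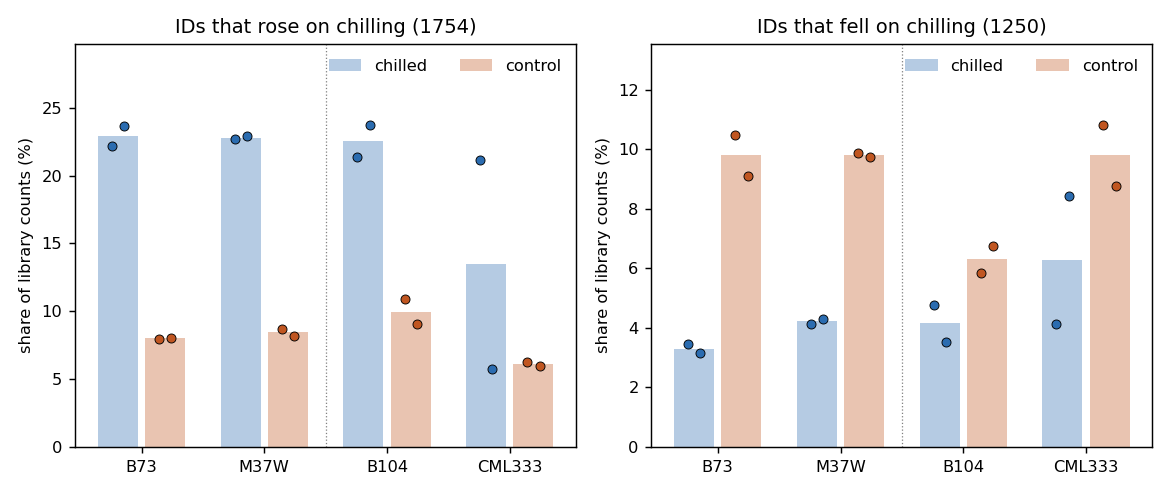
Share of each library's counts (%) in the IDs that rose (left) and fell (right) in B73 and M37W; dots are libraries, bars are means of 2, and the dotted line divides the lines used for the calls from B104 and CML333, which were not used. Chilled B104 libraries and CML333 chilled replicate 1 held 21.2% to 23.8% in the IDs that rose, whereas the library labelled CML333 chilled replicate 2 held 5.75%.

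Calls were made from rare to abundant transcripts, and among called abundant IDs rises outnumbered falls, while most abundant IDs were not called. Of 258 IDs with a mean of at least 500 CPM over the 8 libraries, 54 rose (20.9%) and 15 fell (5.81%). Between 100 and 500 CPM, 263 of 1569 rose (16.8%) and 109 fell (6.95%). Between 5 and 20 CPM the directions were nearly even, with 541 (9.32%) up and 495 (8.53%) down of 5805. Between 2 and 5 CPM, 232 of 1721 rose and 86 fell, but many IDs of that tier passed the low-count filter only through the libraries in which they were high, and such IDs had to differ. IDs that rose and averaged at least 500 CPM numbered 98 in chilled and 22 in control leaves. IDs that fell and averaged at least 500 CPM numbered 5 in chilled and 25 in control leaves. The direction of both differences follows from the calls, which were made on these same libraries.

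**Figure D2:**
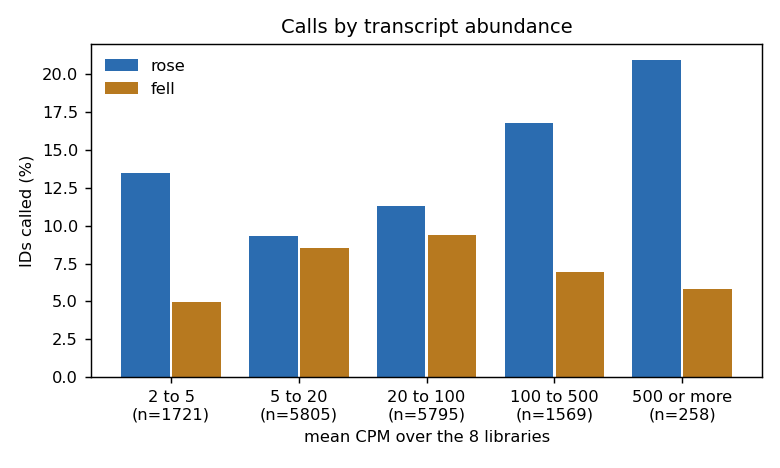
Percent of tested IDs that rose or fell, by mean CPM over the 8 libraries, with the number of IDs in each tier; the 26 IDs under 2 CPM are left out. In the top tier 20.9% rose and 5.81% fell.

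Few of the IDs that rose had 0 counts in every control library. Of the IDs that rose, 341 averaged under 2 CPM in the controls, and 113 of these averaged at least 10 CPM in the chilled libraries. In 15 IDs all 4 control libraries had 0 counts, and 11 of these had counts in every chilled library. Their chilled level was 2.87 to 13.8 CPM (median 5.85), which makes them at least 9.03-fold to at least 41.4-fold higher against a floor of 3 counts over the control group (3 counts of a group's total being the limit that a count of 0 allows, counting error only). In the other direction 1 ID had 0 counts in all 4 chilled libraries and a mean of 5.21 CPM in the controls, at least 15.6-fold lower, but not every control library had counts of it. IDs with 0 counts on one side passed the low-count filter only through the other side, so they had to differ. Their number is no measure of how many genes chilling switches on or off.

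Zm00001d011734, the nuclear ID with the smallest p among those that rose, had 76.4 and 74.1 CPM in chilled B73 and 92.1 and 101 CPM in chilled M37W, against 1.55 and 0.824 CPM in B73 controls and 2.47 and 1.81 CPM in M37W controls. All chilled libraries lay far above all controls in both lines, with a pooled log2 fold change of 5.82 (SE 0.28, edgeR adjusted p 1.98e-06). Zm00001d014253 had 228 and 359 CPM in chilled B73 and 212 and 229 CPM in chilled M37W, against 12.8 and 11.1 CPM in B73 controls and 9.38 and 9.52 CPM in M37W controls (log2 fold change 4.75, SE 0.26, adjusted p 4e-06). Neither line's control level overlapped the chilled range. For both IDs, no difference in response between B73 and M37W was called (edgeR interaction adjusted p 0.615 and 0.721). The choice by smallest pooled p favours IDs whose lines responded alike, so this is no separate sign of agreement. The files do not pair these IDs with names, and no role is given.

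Among IDs that fell, Zm00001d036839 had 8.67 and 5.06 CPM in chilled B73 and 8.19 and 12.3 CPM in chilled M37W, against 138 and 93.1 CPM in B73 controls and 93.3 and 95.6 CPM in M37W controls. Its pooled log2 fold change was -3.44 (SE 0.26, edgeR adjusted p 1.57e-05). Zm00001d044194 had 0.826 and 0.562 CPM in chilled B73 and 1.02 and 0.986 CPM in chilled M37W, against 36.0 and 38.7 CPM in B73 controls and 14.8 and 19.5 CPM in M37W controls (log2 fold change -4.69, SE 0.38, adjusted p 2.65e-05). Its chilled levels rest on 1 or 2 counts a library. Control B73 stood above control M37W here, and all chilled libraries lay near 1 CPM.

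**Figure D3:**
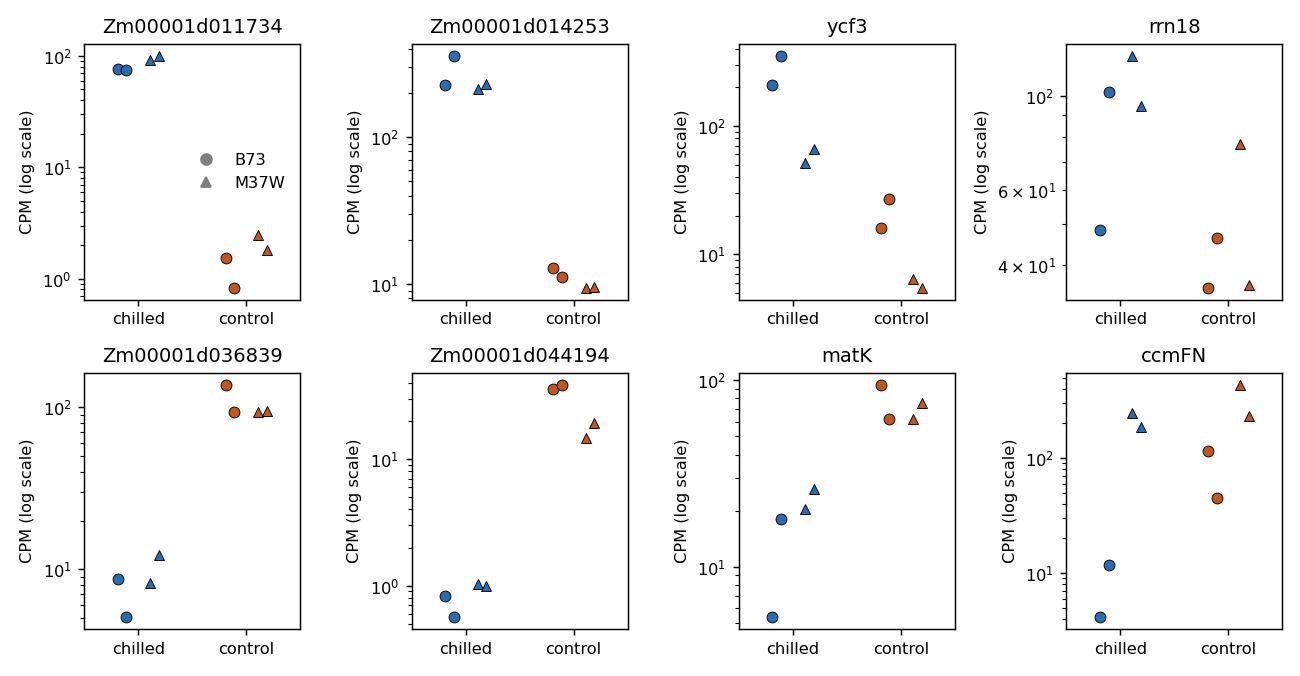
CPM in each of the 8 libraries (log axis, circles B73, triangles M37W) for the 4 nuclear IDs printed and for the organelle genes ycf3, rrn18, matK and ccmFN. Chilled and control libraries do not overlap in 6 of the panels; in rrn18 they overlap across lines but not within a line, and in ccmFN they overlap in M37W.

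In CPM scaled by library totals, how far the libraries of each temperature stood apart differed by direction. The calls used TMM factors, which were 0.897 to 0.974 in chilled and 0.989 to 1.18 in control libraries. Against the fit, these CPM set chilled values lower, and the part of this scaling in the difference between directions was not tested. In 994 of the IDs that rose (56.7%) all 4 chilled libraries lay above all 4 controls, which was so in 6.93% of all tested IDs, and in 904 of the IDs that fell (72.3%) all chilled lay below all controls (11.2% of all tested). Within each line taken alone, both chilled libraries lay above both controls in 1463 of the IDs that rose (83.4%, against 11.4% of all tested), and below in 1176 of those that fell (94.1%, against 19.1%). In either direction, 18.1% of all tested IDs had no overlap between the 4 chilled and 4 control libraries. The level itself often differed between the lines: the line term of the same fit was called in 28.3% of all tested IDs, in 709 (40.4%) of the IDs that rose and in 379 (30.3%) of those that fell. Of the 709, 421 were higher in B73 and 288 in M37W. The temperature effect was the larger of the 2 in size in 1421 (81.0%) of the IDs that rose and in 1028 (82.2%) of those that fell, against 46.03% of all tested IDs, with the calls themselves favouring large temperature effects.

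Both lines contributed to the pooled value, with somewhat larger changes in B73. In a fit with a mean for each line and temperature, the IDs that rose had a median log2 fold change of 1.83 in B73 and 1.54 in M37W, and the IDs that fell had -1.27 in B73 and -1.11 in M37W. The change was larger in B73 in 1048 (59.7%) of the rises and 711 (56.9%) of the falls. The same share over all tested IDs was not measured, so this may not be particular to the called IDs. Both lines' own values pointed the pooled way in 1706 of 1754 and 1221 of 1250 IDs, which a pooled call nearly requires. The lines' values lay within 1 log2 unit of each other in 60.4% of the IDs that rose and 72.1% of those that fell, against 66.4% of all tested IDs. A difference between the lines' responses was called by edgeR's interaction test in 186 of the IDs that rose (10.6%) and 88 of those that fell (7.04%), against 10.1% of all tested IDs. Because unlike responses raise the pooled p, pooled calls favour IDs whose lines agree, and these shares are no separate test of agreement. Among those 186, the change was larger in size in B73 in 137, and among the 88 in 54.

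**Figure D4:**
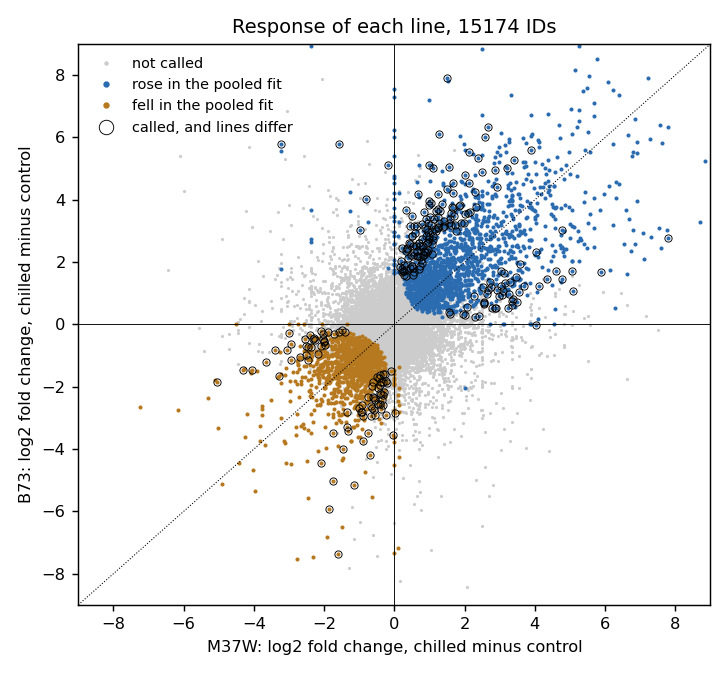
Log2 fold change (chilled minus control) in B73 against that in M37W for all 15174 tested IDs; points are IDs, colours give the pooled call, and black rings mark called IDs whose responses also differed between lines. The 3 IDs beyond 9 log2 units, 1 of them called, are not drawn; called IDs fill the corners where both lines moved the same way.

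What the pooled fit leaves out is the response on which the lines part. The interaction test called 1536 IDs, 854 with the more positive response in B73 and 682 in M37W, and 1262 of them (82.2%) were not called in the pooled fit. In 232 the lines' own changes were called in opposite directions, 160 up in B73 and down in M37W and 72 the reverse, with a median size of 1.46 log2 units in B73 and 1.44 in M37W. In the pooled fit 0 of these 232 were called and their median size was 0.21, which largely follows from choosing IDs with opposite changes. The interaction count was 730 to 954 when a library of M37W was left out (954 without control replicate 1, 730 without control replicate 2, 765 without chilled replicate 1 and 899 without chilled replicate 2).

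Of the plastid genes, ycf3 rose and matK fell in both lines. The product of ycf3 assists the assembly of photosystem I. Its level was 210.3 and 353 CPM in chilled B73 and 51.7 and 66.5 CPM in chilled M37W, against 15.9 and 26.8 CPM in B73 controls and 6.42 and 5.44 CPM in M37W controls. Every chilled library lay above every control, and B73 lay above M37W at both temperatures. The pooled log2 fold change was 3.73 (SE 0.31, edgeR adjusted p 2.83e-05), a 13.3-fold rise, with 4.00 (SE 0.35) in B73 and 3.36 (SE 0.40) in M37W, and among all tested IDs with a positive fold change it had the 33rd smallest p.

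The plastid gene matK encodes a maturase that helps to splice plastid introns. It stood at 5.37 and 17.97 CPM in chilled B73 and 20.5 and 26.1 CPM in chilled M37W, against 94.5 and 61.8 CPM in B73 controls and 61.7 and 75.2 CPM in M37W controls. All chilled libraries lay below all controls, a pooled log2 fold change of -1.97 (SE 0.35, edgeR adjusted p 0.00271). The call was lost in the fit of all 16 libraries (adjusted p 0.0906, log2 fold change -1.98). The lysine transfer RNA gene trnK, whose intron holds matK and whose reads may therefore be shared with it, had 4.96 and 101 CPM in chilled B73 and 18.4 and 12.8 CPM in chilled M37W, against 16.7 and 16.5 CPM in B73 controls and 46.4 and 24.0 CPM in M37W controls. Its pooled log2 fold change of 0.47 (SE 0.999, edgeR adjusted p 0.792) turned to -1.24 (adjusted p 0.0246) without B73 chilled replicate 2, the library with 101 CPM.

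The other tested plastid genes did not pass the pooled test. For atpF, a subunit of the plastid ATP synthase, chilled levels were 1.65 and 56.2 CPM in B73 and 4.61 and 2.46 CPM in M37W, against 2.71 and 2.88 CPM (B73) and 13.3 and 11.3 CPM (M37W) in controls. As with trnK, B73 chilled replicate 2 held the high value, and without it the log2 fold change of 1.04 (SE 1.39, edgeR adjusted p 0.661) became -1.39 (adjusted p 0.0702). The photosystem I subunit psaJ had 0.413 to 5.63 CPM in chilled and 2.06 to 26.7 CPM in control libraries (log2 fold change -1.22, SE 0.68, adjusted p 0.239). With 1 library left out, psaJ ranged from -1.96 (without B73 chilled replicate 2, edgeR adjusted p 0.0442) to -0.29 (without M37W control replicate 2). The cytochrome b6f subunit petD had 0 to 16.4 CPM in chilled and 2.47 to 21.7 CPM in control libraries (log2 fold change -1.27, SE 0.85, adjusted p 0.330). It ranged from -2.98 (without M37W chilled replicate 1, the library with 16.4 CPM, edgeR adjusted p 0.0322) to -0.81 (without B73 control replicate 1). In all, 6 plastid IDs passed the low-count filter of 157 listed, and their median log2 fold change was -0.37. Of these 6, 1 rose and 1 fell, against 11.6% and 8.24% of all tested IDs.

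**Figure D5:**
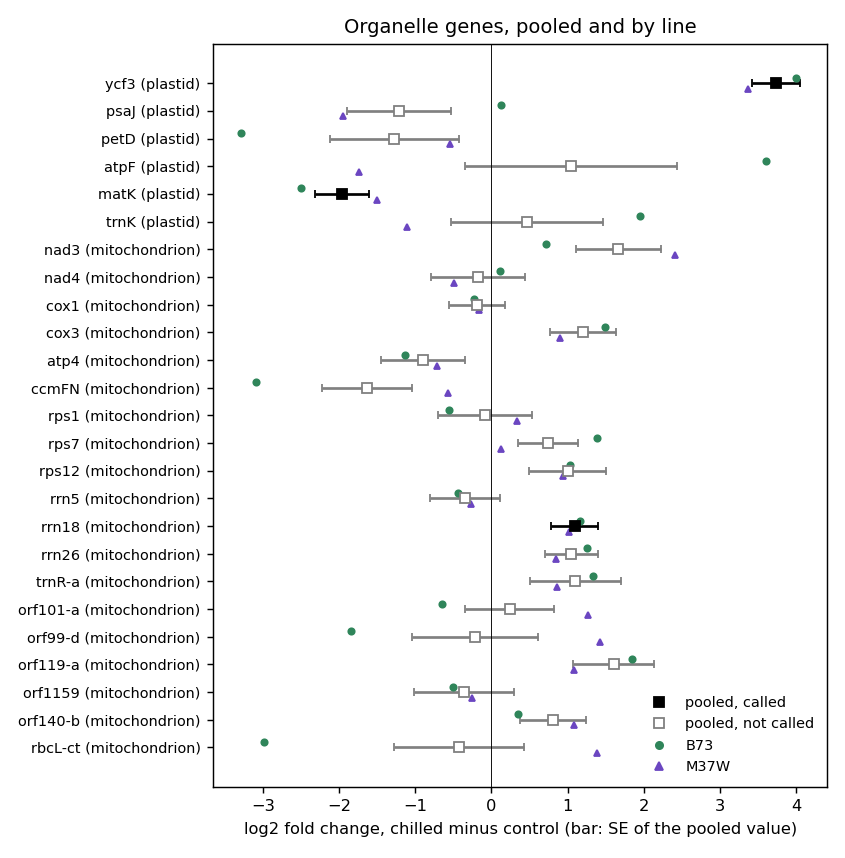
Log2 fold change (chilled minus control) of the 25 tested organelle genes: squares are the pooled value with its SE (filled where called), circles B73 and triangles M37W. The called genes are ycf3, matK and rrn18; B73 and M37W point opposite ways for orf99-d, rbcL-ct, orf101-a, rps1, nad4, psaJ, trnK and atpF.

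Of 208 mitochondrial IDs, 19 passed the filter, and 1 rose and 0 fell in edgeR's pooled fit, against 11.6% and 8.24% of all tested IDs. An unadjusted p under 0.05 was found in 6 of these 19 and in 5072 of all 15174 tested IDs, a similar share. The median log2 fold change of the 19 was 0.24. The one that rose was rrn18, the RNA of the small ribosomal subunit, at 48.3 and 102 CPM in chilled B73 and 124 and 94.6 CPM in chilled M37W, against 35.2 and 46.1 CPM in B73 controls and 77.0 and 35.8 CPM in M37W controls. Within each line the chilled libraries were higher, while across lines the ranges overlapped. The log2 fold change was 1.09 (SE 0.31, edgeR adjusted p 0.0291), and the call was lost in 7 of 21 alternatives, among them the fits without B73 control replicate 1, B73 chilled replicate 2, M37W control replicate 2 or M37W chilled replicate 1 (adjusted p 0.0870, 0.0944, 0.0707 and 0.0744). The large ribosomal RNA, rrn26, averaged 480.5 ± 176 CPM in chilled and 261 ± 89.4 CPM in control libraries (SD, n = 4 each) with a log2 fold change of 1.05 (SE 0.35, edgeR adjusted p 0.0534), and the smallest, rrn5, averaged 90.5 ± 28.1 and 128 ± 75.4 CPM, a difference within the spread. The rrn26 call passed in 9 of 21 alternatives. Ribosomal RNA lacks the long poly(A) tails of messengers, and the share of it that was primed was not measured.

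Transcripts of the respiratory chain did not pass the pooled test in either direction, although nad3 passed in 3 and cox3 in 5 of 21 alternatives. For complex I, nad3 had 1.65 and 1.69 CPM in chilled B73 and 5.63 and 6.90 CPM in chilled M37W, against 0.774 and 1.65 CPM in B73 controls and 1.48 and 0.906 CPM in M37W controls. Chilled libraries lay above controls throughout, though in B73 the nearest pair both rounded to 1.65 CPM (log2 fold change 1.66, SE 0.56, edgeR adjusted p 0.0573). The other complex I gene, nad4, averaged 27.6 ± 18.6 CPM in chilled and 35.9 ± 15.8 CPM in control libraries (SD, n = 4 each), a difference within the spread. Of the cytochrome c oxidase subunits, cox3 averaged 47.6 ± 25.1 CPM in chilled and 23.2 ± 8.91 CPM in control libraries (log2 fold change 1.20, SE 0.43, adjusted p 0.0770), and cox1 averaged 7.23 ± 3.07 and 9.06 ± 1.07 CPM. The ATP synthase subunit gene atp4 averaged 2.997 ± 1.01 and 6.20 ± 4.16 CPM in chilled and control libraries, with an edgeR adjusted p of 0.280.

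In ccmFN, which serves the attachment of haem to cytochrome c, the pooled value joined unlike lines. Chilled B73 had 4.13 and 11.8 CPM and chilled M37W 246 and 186 CPM, against 116 and 45.3 CPM in B73 controls and 433 and 234 CPM in M37W controls. The groups separated in B73 and overlapped in M37W, and the log2 fold change was -1.64 (SE 0.59, edgeR adjusted p 0.0876), made of -3.10 (SE 0.57) in B73 and -0.57 (SE 0.44) in M37W, with an interaction adjusted p of 0.0516. The fall in B73 alone was called (edgeR adjusted p 0.00249) and that in M37W was not (0.422), and the pooled value passed in 4 of 21 alternatives, among them DESeq2 (adjusted p 0.00696) and the fit without M37W control replicate 2 (log2 fold change -2.14, adjusted p 0.0358). The entry rbcL-ct, a mitochondrial ID with the symbol of the plastid gene for Rubisco's large subunit, had 0.826 and 0.562 CPM in chilled B73 and 10.2 and 2.96 CPM in chilled M37W, against 11.2 and 3.29 CPM in B73 controls and 1.48 and 3.63 CPM in M37W controls. Its responses differed between the lines (-2.98 in B73 and 1.38 in M37W, edgeR interaction adjusted p 0.0304), so its pooled value of -0.43 (SE 0.85, adjusted p 0.774) describes neither. Reads from such copies can be shared between plastid, mitochondrion and nucleus, and neither the handling of shared reads nor the strand used in counting is stated in the labels.

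Open reading frames and ribosomal protein genes of the mitochondrion did not pass the pooled test. The open reading frame orf99-d had 217 and 899 CPM in chilled B73 and 866 and 731 CPM in chilled M37W, against 2889.5 and 2107 CPM in B73 controls and 409 and 212 CPM in M37W controls. It was lower in every chilled library than in the controls of B73 and higher in M37W, and its pooled log2 fold change was -0.22 (SE 0.82, edgeR adjusted p 0.891, interaction adjusted p 0.0635). The ribosomal protein genes rps1, rps7 and rps12 had pooled log2 fold changes of -0.08, 0.74 and 0.997 (adjusted p 0.947, 0.213 and 0.195). For rps1 the chilled libraries spanned 8.67 to 317 CPM and the controls 45.3 to 265 CPM. The remaining entries, the arginine transfer RNA trnR-a and the reading frames orf101-a, orf119-a, orf140-b and orf1159, had adjusted p of 0.0553 to 0.819. All mitochondrial IDs together held 0.0715% to 0.244% of counts in chilled and 0.101% to 0.354% in control libraries, and within chilled B73 the share was 0.0715% in replicate 1 and 0.212% in replicate 2. The part of this spread between replicates in the organelle results was not tested.

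Few noncoding RNA IDs of Ensembl had enough counts to be tested. Of 61 tested (of 1765 listed), 11 rose and 1 fell, against 11.6% and 8.24% of all tested IDs, and their median log2 fold change was 0.46, with 42 of 61 above 0. The 11 that rose did so by 1.09 to 2.55 log2 units, and the 1 that fell by -2.36. In 5 of the 12 all chilled libraries lay apart from all controls. That was so in 56.7% of all IDs that rose, 72.3% of all that fell and 18.1% of all tested IDs. Their levels were low, 2.59 to 23.4 CPM over the 8 libraries, and the files give them no names. Some passed the low-count filter only through chilled libraries and so had to be higher there, and no direction is read from these counts. These IDs held 0.0609% to 0.101% of counts in chilled and 0.0474% to 0.0799% in control libraries. The 154 microRNA IDs had 0 counts in each of the 8 libraries, which allows up to 1.24 to 1.69 CPM in a chilled and 1.16 to 1.48 CPM in a control library.

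B104 and CML333, which took no part in the calls, give the same IDs a measurement in other libraries. The IDs that rose held 21.3% and 23.8% of counts in chilled B104 and 21.2% and 5.75% in chilled CML333, against 10.9% and 9.05% in B104 controls and 6.23% and 5.97% in CML333 controls. The chilled B104 libraries and CML333 chilled replicate 1 lie within or next to the range of chilled B73 and M37W, and the library labelled CML333 chilled replicate 2 lies below all controls. The IDs that fell held 4.79% and 3.53% in chilled B104 and 4.14% and 8.42% in chilled CML333, against 5.86% and 6.77% in B104 controls and 10.8% and 8.76% in CML333 controls. In the library labelled CML333 chilled replicate 2, Zm00001d011734 and Zm00001d014253 had 0 CPM, against 49.5 and 14.9 CPM in chilled replicate 1, and Zm00001d036839 had 119.8 CPM, against 7.21 CPM in replicate 1.

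Fitted together with line as a block, the 8 libraries of B104 and CML333 called 5.28% of 16332 IDs upwards and 2.98% downwards. Of the 1754 IDs that rose in B73 and M37W, 1631 were tested there and 352 (21.6%) were called upwards and 11 downwards, with a median log2 fold change of 1.91 against -0.04 over all IDs tested there. These 352 were 40.8% of all 862 upward calls of that fit. Of the 1250 IDs that fell, 1200 were tested and 28 (2.33%) were called downwards, a share below the 2.98% of all IDs, and 54 upwards, with a median of -0.31. Without the library labelled CML333 chilled replicate 2, the counts were 737 of 1704 (43.3%, against 10% of all IDs called upwards) and 118 of 1210 (9.75%, against 6.04% downwards). The CML333 libraries without it, where the lone chilled library is assumed to vary like the controls, called 974 of 1521 upwards (64.0%, against 20.8% of all IDs) and 388 of 1163 downwards (33.4%, against 15.8%). All 4 CML333 libraries called 19 of 1122 upwards (1.69%, against 1.32%) and 31 of 1132 downwards (2.74%, against 1.54%).

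The 4 libraries of B104 alone called 864 of 1519 upwards (56.9%, against 23.5% of all IDs) and 239 of 1068 downwards (22.4%, against 19.1%), with 224 of the 1068 (21.0%) called upwards. In B104, chilled leaves had 107 and 202 CPM of Zm00001d011734 and 154 and 251 CPM of Zm00001d014253, against 0 and 0 CPM and 1.11 and 0.378 CPM in controls. Zm00001d036839 had 6.48 and 6.24 CPM in chilled B104, against 595 and 1851 CPM in its controls. Zm00001d044194 was too low to be tested in B104 alone, with 0 and 2.23 CPM in chilled leaves, against 3.33 and 0.378 CPM in controls. In CML333 it had 0.961 CPM in chilled replicate 1 and 45.0 CPM in the library labelled chilled replicate 2, against 21.9 and 41.1 CPM in controls. The fit of B104 and CML333, which includes that library, gave a log2 fold change of -0.43 (edgeR adjusted p 0.812).

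The called organelle genes did not move alike in the other lines. In B104, ycf3 was higher in chilled leaves (20.4 and 122 CPM, against 0.370 and 0.378 CPM in controls, edgeR adjusted p 0.00375). The other called genes went the opposite way to B73 and M37W in B104: matK had 73.5 and 8.92 CPM in chilled leaves, against 5.54 and 0 CPM in controls (log2 fold change 4.00, adjusted p 0.0492), and rrn18 had 148 and 37.5 CPM in chilled leaves, against 5318 and 8069 CPM in controls (-6.11, adjusted p 0.00449). These B104 results, that of ycf3 among them, rest on the B104 controls, the libraries that stand apart in mitochondrial counts. Those controls also held only 0.000628% and 0.000416% of their counts in plastid IDs, against 0.00532% to 0.0543% in the other libraries. In CML333 the log2 fold changes were -0.41 for ycf3, -0.09 for matK and -0.10 for rrn18, with edgeR adjusted p of 0.808 to 0.972, and these include the library labelled chilled replicate 2.

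In a fit of all 16 libraries, the response of B73 and M37W differed from that of B104 and CML333 in 363 (20.7%) of the IDs that rose and 428 (34.2%) of those that fell, against 20% of 17410 IDs tested. The B73 and M37W libraries that made the calls also enter this test, and so do the B104 controls that stand apart.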

How the data were processed

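Per the labels' protocols, 3′ end libraries of leaf RNA were prepared with the QuantSeq forward kit and read on a NextSeq. For each library the authors deposited raw counts per gene ID, which were whole numbers in every file. The submitters' processing notes name STAR and edgeR, without versions. The sources used here do not give the genome build, annotation, strand or handling of multiple alignments. The rescaled table of each line was not used. Organelle and microRNA symbols came from RefSeq's gene table of assembly Zm-B73-REFERENCE-NAM-5.0, matched by locus tag or synonym.

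The 8 libraries' counts went into edgeR 4.0.16 (R 4.3.3): filterByExpr over the 4 line and temperature groups (minimum count 10), TMM factors (0.897 to 1.18), estimateDisp, robust glmQLFit and glmQLFTest on line plus temperature, two-sided, Benjamini-Hochberg adjusted p under 0.05. A model with 4 group means gave the interaction and each line's value. The procedure was tested on simulated data. CPM are scaled by library totals, and intervals and floors cover counting error only. Printed IDs were the 2 nuclear IDs with the smallest p in each direction, because no nuclear ID could be named, and all tested organelle genes with a symbol; ccmFN, ycf3, matK and rrn18 were picked for a figure after their values were seen. The libraries, lists and alternatives were chosen with earlier results of these data known. Alternatives used DESeq2 1.42.0, limma 3.58.1 and the settings named in the closing section.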

Additional observations from a re-analysis of the deposited data

Results flagged for a closer look

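In 72 sets of 4 libraries examined (each printed ID and 7 library measures, chilled and control), 5 had 1 library far from the other 3 by Dixon's test at the 95% level. Chance gives about 5% of sets if all 4 libraries are alike. Each set joined B73 and M37W, whose levels often differ, so that rate is only a rough guide. In chilled leaves, B73 replicate 2 was high for Zm00001d014253 (359 CPM, others 212 to 229 CPM), trnK (101 CPM, others 4.96 to 18.4 CPM) and atpF (56.2 CPM, others 1.65 to 4.61 CPM). M37W chilled replicate 1 was high for petD, at 16.4 CPM with the others at 0 to 1.97 CPM. Among controls, B73 replicate 1 was high for Zm00001d036839, at 138 CPM with the others at 93.1 to 95.6 CPM. Of 29 printed IDs, 1 differed between the lines in its response by edgeR's interaction test: rbcL-ct, with a difference of -4.36 log2 units (B73 minus M37W, SE 1.22, adjusted p 0.0304).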

How the results depend on the processing

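Among alternatives planned for the pooled response (3004 IDs, 1754 up and 1250 down), DESeq2, limma voom, size factors, library totals, another or no low-count filter, a 2-fold minimum and nuclear IDs alone kept each count within 1.5 times. Adjusted p under 0.01 left 1407 (993 up, 414 down), no line block 1008 (702 up, 306 down), and the fit of all 16 libraries 1346 (853 up, 493 down). With 4 group means 4423 were called (2357 up, 2066 down), of which 2873 were shared with the main fit. Leaving out 1 library gave 2292 to 2579 IDs, 1405 to 1578 up and 792 to 1001 down. Same-numbered libraries deviated together at r = -0.0445 in B73 and 0.102 in M37W. With 2 libraries of each line and temperature, this check gives 1 value a line. It cannot tell whether same-numbered libraries shared a plant, day or batch. A replicate block by title number called 1885 (642 down) and by description number 1930 (676 down). The interaction count was 630 at adjusted p under 0.01 and 730 to 1880 without 1 library. Calls in the other lines, by alternatives chosen after seeing the data, were 737 up and 118 down without the library labelled CML333 chilled replicate 2, 864 and 239 in B104, 19 up in CML333, and 974 and 388 in CML333 without that library. The 4 nuclear IDs and ycf3 passed in every alternative run. Signs turned only in uncalled organelle genes. With limma voom, trnK was at -0.30 and atpF at -0.11; under the block by title number trnK was at -0.22, and by description number trnK at -0.33 and atpF at -0.053; without line block rps1 was at 0.17. With 1 library left out, log2 fold changes ranged from -1.24 to 0.98 for trnK, -1.39 to 1.85 for atpF, -1.12 to 0.17 for nad4, -0.25 to 0.72 for orf101-a, -0.88 to 0.53 for orf99-d, -1.08 to 0.0198 for orf1159, -0.63 to 0.34 for rps1, -1.53 to 0.34 for rbcL-ct, -0.49 to 0.0653 for cox1 and -0.64 to 0.24 for rrn5. The causes were not tested. The smallest change that this depth could detect was not measured.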
